A study of Drosophila melanogaster with 6 samples.

Results

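The genes described here encode the mitochondrial machinery that turns fuel into ATP. They are subunits of the respiratory complexes and of ATP synthase, enzymes of the TCA cycle, carriers of the mitochondrial membranes, and proteins that import and fold mitochondrial precursors. They were chosen by gene symbol alone. A gene was taken when its symbol starts with ATPsyn, Cyt-c, CoV, CoIV or Sdh, with ND and a digit, or with Tim or Tom and a digit, or when it is blw, sun, cype, levy, RFeSP, ox, Pdsw, kdn, Acon, Mdh2, skap, sesB, porin or Hsp60. The rule found 47 genes of the 15603 listed. Of these, 40 had a mean above 1 FPKM (fragments per kilobase of transcript, scaled to the mapped fragments of each library) over all libraries and are described as the mitochondrial genes. The other 7 had a mean of 1 FPKM or less. The lowest gene above this limit was Tim9b at 5.44 FPKM, and the highest below it was Tim17b1 at 0.799 FPKM.

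RNA came from escargot-positive cells of the Drosophila midgut, the intestinal stem cells (ISCs) and enteroblasts (EBs), sorted by GFP from 7-day-old mated females and pooled from many guts per sample. There were 6 libraries with 1 library per condition, so the error between repeated samples is unknown and no p-value is given. In all 6 conditions the flies carried esg::Gal4 with a temperature-sensitive Gal80, a driver that is silent in the cold and turns on transgenes in ISCs and EBs at 29 °C. The HttQ138 cells expressed an mRFP-tagged human huntingtin with an expanded polyglutamine tract, which aggregates, for 2 days at 29 °C, and their control was w1118 (the driver with no transgene, 2 days). The Rpn3RNAi cells expressed a hairpin against Rpn3, a subunit of the proteasome lid, from the attP2 site for 4 days, and their control was attP2 (the driver with the empty site, 4 days). The CncCRNAi+HttQ138 cells expressed HttQ138 together with a hairpin against CncC, the fly homologue of Nrf2, for 2 days, and their control was CncCRNAi alone (2 days). Each hairpin was a single construct, and the driver acts in ISCs and EBs alike, so that a change in either cell type or in their proportion cannot be told apart in these pools. Nor can fewer cells of a type be told apart from less RNA per cell.

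The nuclear genome encodes most proteins of the respiratory chain. Complex I oxidizes NADH and complex II oxidizes succinate, complex III passes electrons on to cytochrome c, complex IV reduces oxygen, and ATP synthase uses the proton gradient that results. Precursor proteins enter through the TOM complex of the outer membrane, are handed on by small Tim chaperones or by TIM complexes, and fold in the matrix with the help of Hsc70-5 and the Hsp60 chaperonin with its partner Hsp10. In the fly gut, mitochondrial function in ISCs is known to bear on their proliferation and on the differentiation of EBs.

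The libraries held 2765000 to 3660000 fragments by an estimate from the spacing of their low FPKM values. Each interval given for a ratio is a 95% exact binomial interval on these estimated fragments and covers counting error only. The ISC and EB markers esg, Dl, N, hdc and Sox21a summed to 471 to 536 FPKM in the 6 libraries, with esg itself at 287 to 346 FPKM. Enterocyte markers, 10 genes, were present in every library and summed to 521 to 8015 FPKM. Rpn3 was at 63.2 FPKM in Rpn3RNAi and 77.1 FPKM in attP2, but also at 71.0 FPKM in HttQ138, 45.5 in w1118, 33.1 in CncCRNAi+HttQ138 and 37.7 in CncCRNAi, so that its transcript was only slightly below its own control and above 3 other libraries. The gene cnc was at 75.6 FPKM in the library labelled CncCRNAi+HttQ138 and 64.4 FPKM in the library labelled CncCRNAi, against 60.7 FPKM in HttQ138 and 63.8 FPKM in w1118, so its transcript level does not show the knockdown. All libraries with a hairpin are therefore named by their labels, without a statement on the knockdown.

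Mitochondrial genes were among the more abundant transcripts of these cells. Their median mean level was 198 FPKM, against 16.4 FPKM over the 8380 genes with a mean above 1 FPKM. In 39 of the 40 genes every library reached 10 FPKM, 31 had a mean of at least 100 FPKM and 6 of at least 500 FPKM. The beta subunit of ATP synthase, ATPsyn-beta, was the most abundant with 1196 FPKM in HttQ138, 1171 in w1118, 575 in Rpn3RNAi, 1115 in attP2, 1232 in the library labelled CncCRNAi+HttQ138 and 1158 in the library labelled CncCRNAi. It stood at rank 109 of all genes by mean level. It was followed by the ADP/ATP carrier sesB (mean 1040 FPKM), the outer membrane channel porin (710 FPKM) and the complex IV subunit cype (659 FPKM). ATPsyn-beta and sesB overlapped over the 6 libraries, at 575 to 1232 FPKM and 657 to 1266 FPKM, so their order is not resolved. The lower end held the import receptor Tom70 at 21.5 FPKM and the small Tim protein Tim9b at 5.44 FPKM.

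**Figure D1:**
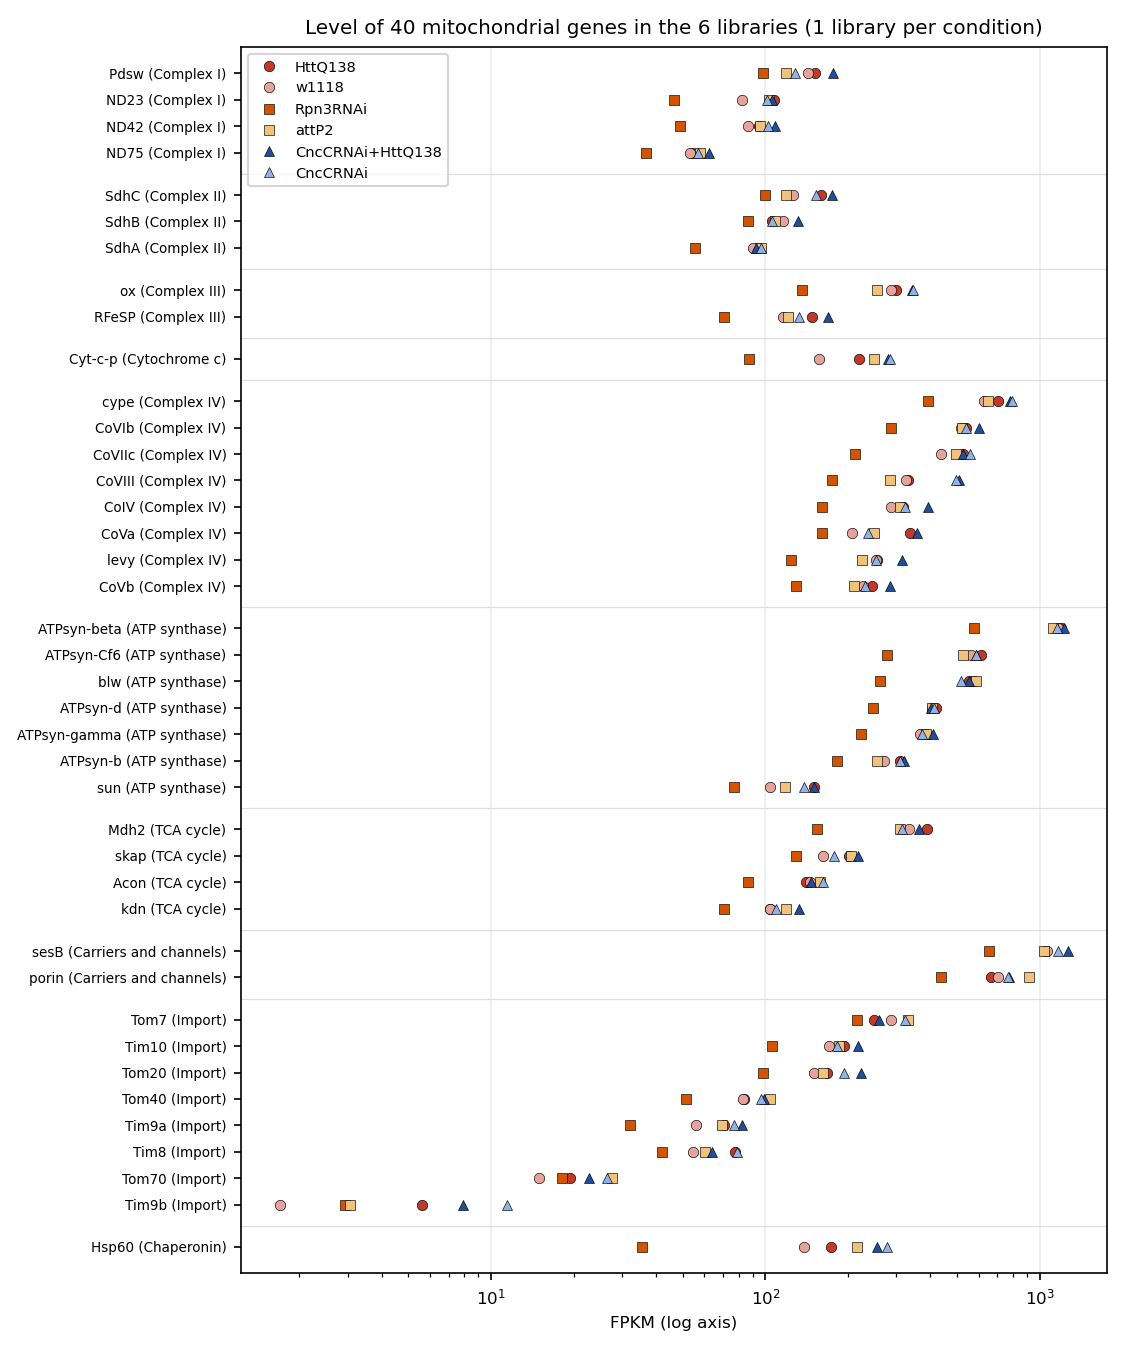
FPKM (log axis) of each of the 40 mitochondrial genes, 1 point per library, grouped by role and ordered by mean level within each role. The Rpn3RNAi points (dark squares) lie at the left end of 38 of the 40 rows, and the other 5 libraries lie close together except in rows such as Tim9b, Tom70 and Hsp60.

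Subunits of the same complex differed in level. Complex IV genes had means of 221 FPKM (CoVb) to 659 FPKM (cype), and ATP synthase genes of 123 FPKM (sun, the epsilon subunit) to 1074 FPKM (ATPsyn-beta). The complex I genes of the set were lower, with means of 53.5 FPKM (ND75) to 136 FPKM (Pdsw), and the 3 complex II genes had means of 87.3 FPKM (SdhA) to 139 FPKM (SdhC). The order of the 40 levels was much the same in every library, with a Spearman's rho of 0.933 to 0.991 over the 15 pairs of libraries, across genes that share length and sequence composition between libraries. The lowest rho was that between Rpn3RNAi and the library labelled CncCRNAi.

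In the library labelled Rpn3RNAi, the mitochondrial genes were lower as a group. All 40 had a lower FPKM in Rpn3RNAi than in attP2, against 52.4% of all genes tested. The median log2 ratio of FPKM + 1 was -0.78 for the mitochondrial genes and -0.03 for all genes, and the median ratio of the 40 genes was 0.582. A fall of at least 1.5-fold with at least 10 FPKM in attP2 was seen in 34 of 40 genes, or 85%, against a background of 12.3% of all genes, and none rose by as much (background 10.5%). At the threshold of the study, 3-fold and 10 FPKM, 1 gene fell, Hsp60, against a background of 1.3%. The interval of the ratio lay below 1 for 37 genes and included 1 for Pdsw, SdhC and Tim9b. Summed over the 40 genes, mitochondrial FPKM made up 1.00% of all FPKM in Rpn3RNAi and 1.66% in attP2.

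**Figure D2:**
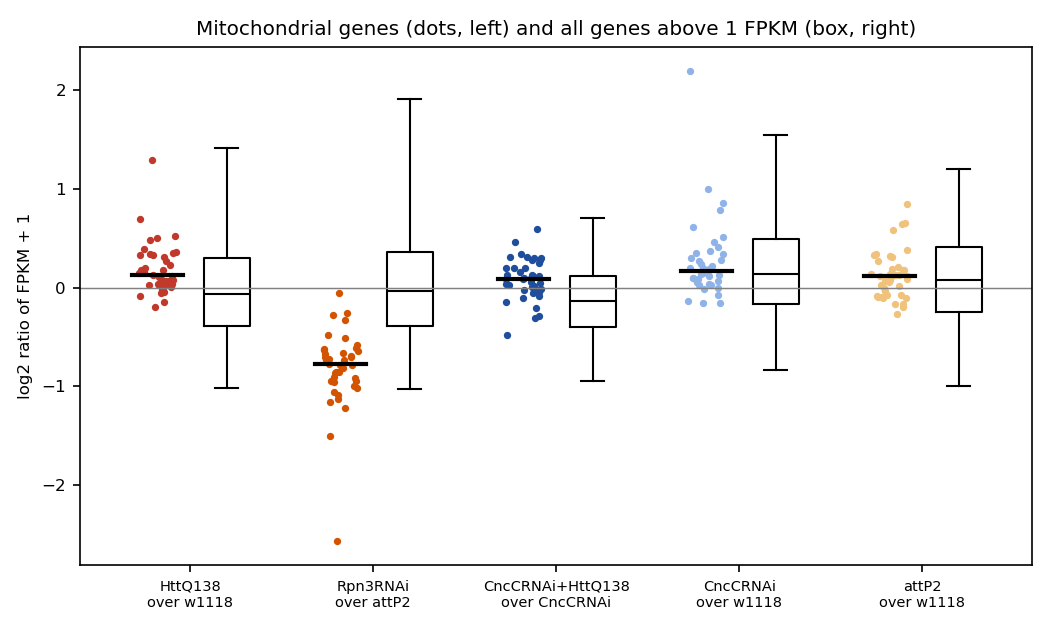
Log2 ratio of FPKM + 1 in the 3 main comparisons and, at the right, between the control libraries. Dots are the 40 mitochondrial genes with a thick line at their median, and boxes are the 8380 genes above 1 FPKM (median, quartiles, and whiskers at the 5th and 95th percentiles). In Rpn3RNAi over attP2 every dot lies below 0, with a median of -0.78, while the box is centred at -0.03.

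Abundant genes were somewhat lower in Rpn3RNAi in general. The 835 genes with a mean of at least 100 FPKM had a median log2 ratio of -0.31, and 28.3% of them fell by 1.5-fold, compared with 87.1% of the 31 mitochondrial genes at that level. The 86 genes of cytosolic ribosomal proteins, which are also short and abundant, had a median of -0.24. Mitochondrial genes with a median transcript under 1000 nt had a median of -0.72 (22 genes), and longer ones -0.78 (18 genes). Rpn3RNAi was the lowest of all 6 libraries in 38 of the 40 genes, against 23.6% of all genes, and in 27 genes it lay at least 1.5-fold below every other library, against 5.04% of all genes. The exceptions were Tom70 and Tim9b, which were lowest in w1118. Rpn3RNAi is thus low beside each of the controls, with a median log2 ratio of -0.70 to w1118 and -0.89 to the library labelled CncCRNAi, both from 2 days at 29 °C rather than 4.

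**Figure D3:**
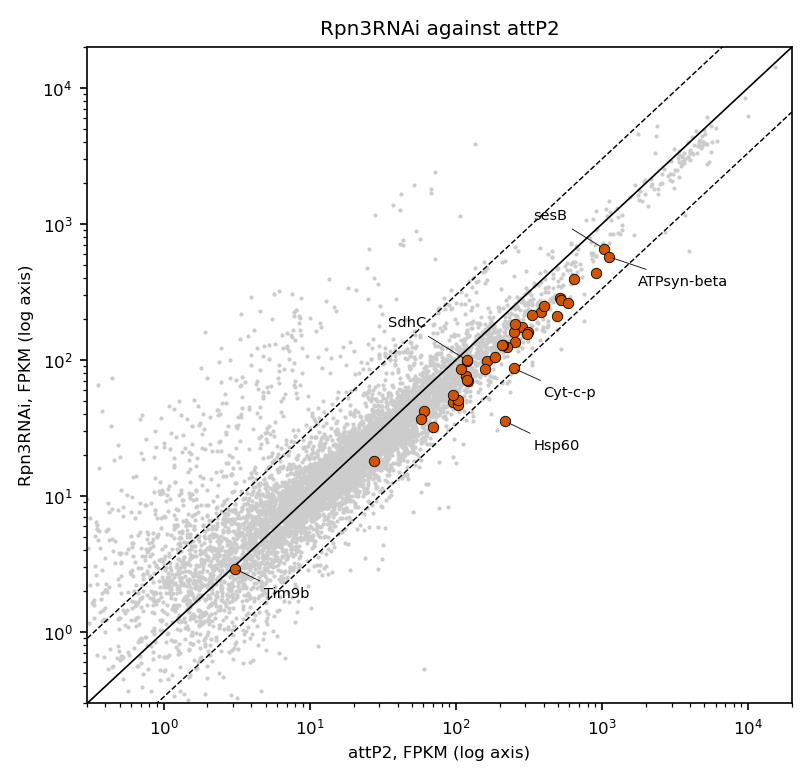
FPKM in Rpn3RNAi (vertical log axis) against attP2 (horizontal log axis) for genes with a mean above 1 FPKM (grey, those within the axes in both libraries) and the mitochondrial genes (orange). The solid line marks equal values and the dashed lines 3-fold differences. All 40 orange points lie below the solid line, and Hsp60 (35.6 against 216 FPKM) is the one below the lower dashed line.

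The single largest difference was that of Hsp60, the matrix chaperonin that folds imported proteins. It had 174 FPKM in HttQ138, 138 in w1118, 35.6 in Rpn3RNAi, 216 in attP2, 256 in the library labelled CncCRNAi+HttQ138 and 277 in the library labelled CncCRNAi. Rpn3RNAi stood far below the other 5 libraries, and its ratio to attP2 was 0.165 (0.142 to 0.190), that is, 6.07-fold lower. The paralogs Hsp60B and Hsp60C were listed at 0 in all libraries and Hsp60D in 5 of them. CG11267, for which RefSeq lists Hsp10 as a synonym, the lid of the same chaperonin, had 97.3 FPKM in Rpn3RNAi and 334 FPKM in attP2, 3.44-fold lower (ratio 0.291, 0.237 to 0.355). Hsc70-5, the matrix Hsp70 of the import motor, had 65.2 FPKM in Rpn3RNAi and 166 FPKM in attP2 (ratio 0.392, 0.354 to 0.434). Trap1, the mitochondrial Hsp90, had 25.7 FPKM in Rpn3RNAi and 53.2 FPKM in attP2 (ratio 0.483, 0.400 to 0.581). The proteases and their partner differed less and did not reach 1.5-fold. Lon was at 36.4 FPKM in Rpn3RNAi and 42.8 FPKM in attP2, ClpX (CG4538) at 41.1 and 54.9 FPKM and ClpP (CG5045) at 38.4 and 47.1 FPKM, each in the same order.

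Cytochrome c, the mobile electron carrier between complexes III and IV, showed the next largest difference among the 40 genes. Its broadly expressed gene Cyt-c-p had 220 FPKM in HttQ138, 157 in w1118, 87.2 in Rpn3RNAi, 248 in attP2, 280 in the library labelled CncCRNAi+HttQ138 and 285 in the library labelled CncCRNAi. It was 2.85-fold lower in Rpn3RNAi than in attP2 (ratio 0.351, 0.285 to 0.429), just short of 3-fold. The level in attP2 was itself 1.58 times that in w1118.

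**Figure D4:**
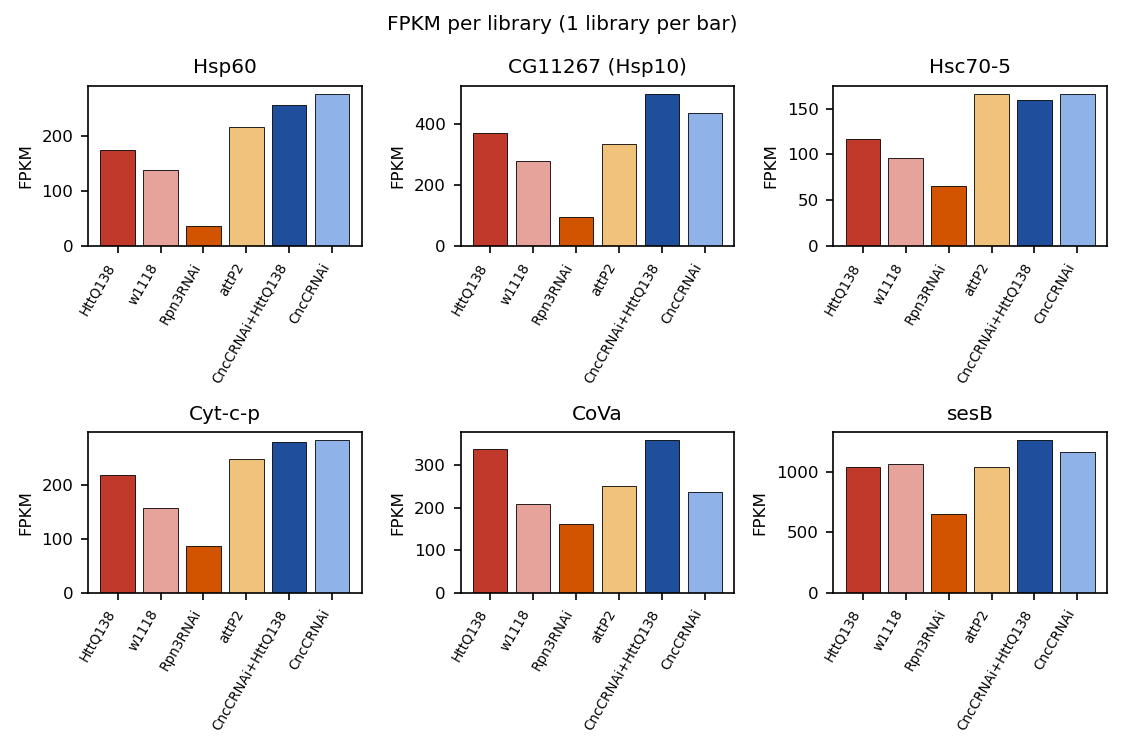
FPKM in each of the 6 libraries (1 bar per library, axes from 0) for Hsp60, its partner CG11267 (Hsp10), Hsc70-5, Cyt-c-p, the complex IV subunit CoVa and the ADP/ATP carrier sesB. The Rpn3RNAi bar is the lowest in each panel, at 35.6 FPKM for Hsp60, and in the CoVa panel the bars of HttQ138 (337 FPKM) and CncCRNAi+HttQ138 (359 FPKM) stand above the other 4.

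The difference ran through all the complexes. In complex IV, 8 of 8 genes fell by at least 1.5-fold in Rpn3RNAi (background 12.3%), with ratios between 0.428 and 0.645. The largest was in CoVIIc, a small structural subunit, at 211 FPKM in Rpn3RNAi and 494 FPKM in attP2 (ratio 0.428, 0.366 to 0.499), and the smallest in CoVa, a nuclear-encoded subunit, at 161 FPKM and 250 FPKM in that order. In ATP synthase, all 7 genes were lower and 6 of them fell by 1.5-fold. The alpha subunit blw had 262 FPKM in Rpn3RNAi and 588 FPKM in attP2 (ratio 0.446, 0.420 to 0.473). ATPsyn-beta, which pairs with blw in the catalytic head, had a ratio of 0.516 (0.494 to 0.538). The stalk subunit ATPsyn-b was the one that did not reach 1.5-fold, with 183 FPKM in Rpn3RNAi and 256 FPKM in attP2. Both complex III genes fell, with ratios of 0.534 for the small subunit ox and 0.583 for the Rieske iron-sulfur protein RFeSP.

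Complexes I and II were less even. In complex I, ND23, an iron-sulfur subunit, had 46.6 FPKM in Rpn3RNAi and 103 FPKM in attP2 (ratio 0.452, 0.350 to 0.580). ND42 and ND75 also fell, with ratios of 0.514 and 0.634, whereas Pdsw was at 97.9 FPKM in Rpn3RNAi and 119 FPKM in attP2 (ratio 0.824, 0.666 to 1.02). Of the complex II genes, which also belong to the TCA cycle, only the flavoprotein SdhA passed 1.5-fold, with 55.4 FPKM in Rpn3RNAi and 96.1 FPKM in attP2. The iron-sulfur subunit SdhB had a ratio of 0.794 (0.677 to 0.930) and the membrane anchor SdhC of 0.837 (0.687 to 1.02). The median log2 ratio of the 3 complex II genes was -0.33 and that of the 4 complex I genes -0.80, groups too small for a comparison.

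**Figure D5:**
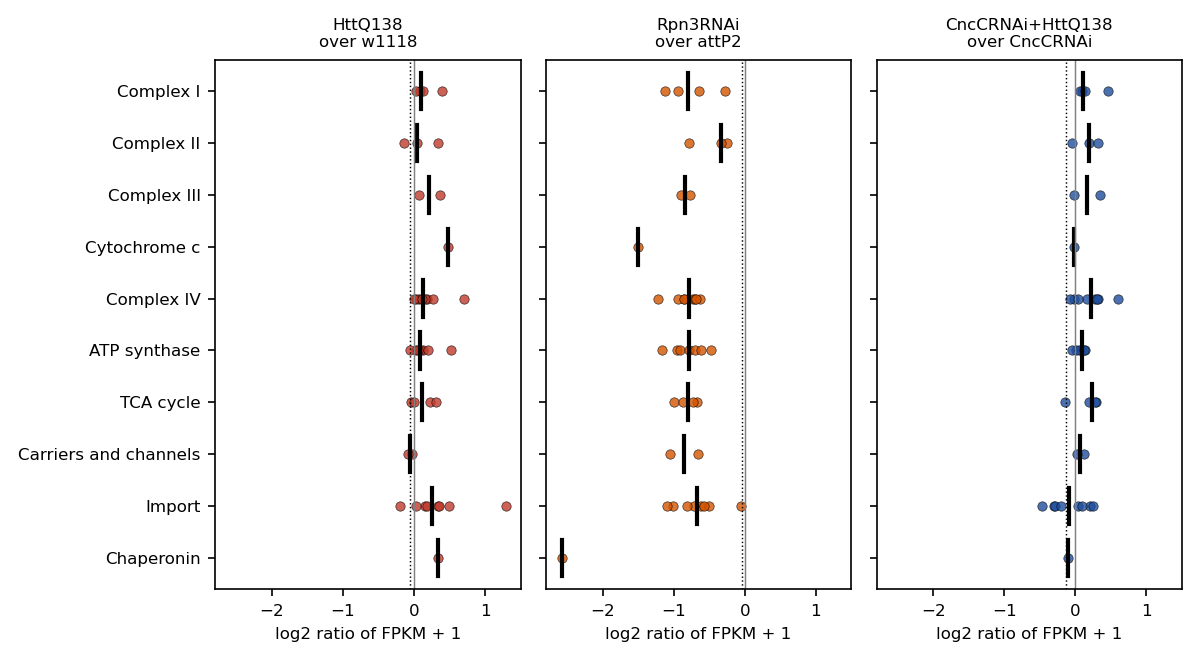
Log2 ratio of FPKM + 1 of each mitochondrial gene (dots) by role, in the 3 main comparisons. Short vertical bars mark the median of each role, the grey line marks 0 and the dotted line the median of all genes. In Rpn3RNAi over attP2 all roles have negative medians, from -0.33 for complex II to -2.57 for the chaperonin gene Hsp60. In the other comparisons most dots lie within 0.5 of 0.

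The TCA cycle enzymes of the set all fell in Rpn3RNAi. Malate dehydrogenase Mdh2 had 155 FPKM in Rpn3RNAi and 309 FPKM in attP2 (ratio 0.501, 0.451 to 0.555). Aconitase (Acon) had a ratio of 0.546, citrate synthase (kdn), which starts the cycle, of 0.599, and the beta subunit of succinyl-CoA ligase (skap) of 0.628. Both membrane proteins that exchange metabolites fell as well. Porin, the outer membrane channel, had 438 FPKM in Rpn3RNAi and 914 FPKM in attP2 (ratio 0.480, 0.453 to 0.508), and sesB had 657 FPKM in Rpn3RNAi and 1041 FPKM in attP2 (ratio 0.631, 0.603 to 0.660). The exons of sesB are shared in part with those of Ant2, a second ADP/ATP carrier, so both values are uncertain. Ant2 was at 9.91 FPKM in Rpn3RNAi and 34.8 FPKM in attP2.

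All 8 import genes were lower in Rpn3RNAi, and 6 of them fell by 1.5-fold (background 12.3%). Tom40, the channel of the TOM complex, had 51.2 FPKM in Rpn3RNAi and 104 FPKM in attP2 (ratio 0.491, 0.422 to 0.570). Tim9a, a small Tim chaperone, had 32.1 FPKM in Rpn3RNAi and 69.4 FPKM in attP2 (ratio 0.462, 0.294 to 0.709). The receptor Tom20, the small subunit Tom7, the small Tim chaperone Tim10 and the receptor Tom70 had ratios of 0.568 to 0.658. Tim8, another small Tim chaperone, was at 42.0 FPKM in Rpn3RNAi and 60.2 FPKM in attP2, and Tim9b at 2.93 and 3.07 FPKM in the same order. The Tim9b ratio of 0.955 had an interval of 0.419 to 2.12, so no difference was detectable at this depth.

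Values of other cell types moved with this comparison. The enterocyte markers summed to 8015 FPKM in Rpn3RNAi and 654 FPKM in attP2, with 9 of 10 genes higher in Rpn3RNAi and none at 0. Most of the sum came from secreted digestive enzymes, such as alphaTry at 3867 FPKM in Rpn3RNAi and 135 FPKM in attP2. The marker that was lower was the brush border myosin Myo31DF, at 135 FPKM in Rpn3RNAi and 182 FPKM in attP2. Other markers that are not digestive enzymes were higher, namely Myo61F (98.9 and 68.6 FPKM), nub (6.29 and 4.47 FPKM) and, slightly, mex1 (111 and 109 FPKM), each in that order. Enteroendocrine markers summed to 260 FPKM in Rpn3RNAi and 148 FPKM in attP2 (10 of 10 higher), and visceral muscle markers to 19.3 and 7.65 FPKM (5 of 8 higher) in that order. ISC and EB markers summed to 473 FPKM in Rpn3RNAi and 483 FPKM in attP2, with 4 of 5 genes higher in Rpn3RNAi. The lower sum came from esg, at 302 FPKM in Rpn3RNAi and 325 FPKM in attP2. The part of these cells in the lower mitochondrial values was not tested. With each library rescaled by the median ratio of its genes, the 34 falls of 1.5-fold became 21. The share of all genes that fell was not counted under this scaling. Tim9b was higher in Rpn3RNAi with this scaling and with rescaling to a fixed sum. The median difference from all genes moved little, at -0.71 with median-ratio scaling and -0.74 as deposited.

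In HttQ138, by contrast, the mitochondrial genes stayed close to their control. Of the 40 genes, 33 were higher in HttQ138 than in w1118, or 82.5%, against 44.2% of all genes. The differences were small, with a median log2 ratio of 0.12 (all genes -0.06). The 835 genes of at least 100 FPKM had a median of 0.02. At that level, 138 of 297 genes with a transcript under 1000 nt and 250 of 517 longer ones were lower. A single gene rose by 1.5-fold with 10 FPKM, or 2.5%, which is below the background of 7.97%, and none fell by as much (background 10.6%). None passed 3-fold in either direction, against backgrounds of 2.37% higher and 1.15% lower. The interval of the ratio lay above 1 for 13 genes and below 1 for 1 gene, porin.

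The gene that rose was CoVa, a matrix-side subunit of complex IV. It had 337 FPKM in HttQ138, 208 in w1118, 161 in Rpn3RNAi, 250 in attP2, 359 in the library labelled CncCRNAi+HttQ138 and 237 in the library labelled CncCRNAi. Both libraries with HttQ138 lay above the other 4, and the ratio of HttQ138 to w1118 was 1.62 (1.42 to 1.86). Exons of CoVa overlap those of glo on the other strand in the reference. The strand setting of the counting is not stated, so the CoVa value is uncertain to that extent. The next genes did not reach 1.5-fold. The ATP synthase subunit sun had 150 FPKM in HttQ138 and 104 FPKM in w1118 (ratio 1.44, 1.09 to 1.90), Tim8 had 77.6 FPKM in HttQ138 and 54.7 FPKM in w1118, and Cyt-c-p had 220 FPKM in HttQ138 and 157 FPKM in w1118 (ratio 1.40, 1.19 to 1.65). Tim9b was 3.29 times as high in HttQ138, at 5.62 FPKM against 1.71 FPKM in w1118 (1.46 to 8.38), but stayed under 10 FPKM. The lowest ratios were those of Tom7, at 250 FPKM in HttQ138 and 287 FPKM in w1118, and of SdhB, at 105 FPKM in HttQ138 and 116 FPKM in w1118. The other 3 with the lowest ratios were porin, blw and Acon, at 0.942 to 0.967.

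The median log2 ratio of HttQ138 depended on the control library. Rescaling left it positive over w1118, at 0.19 with a fixed sum per library and 0.21 with median-ratio scaling. Against attP2 the median was 0.05 (all genes -0.15). Against the library labelled CncCRNAi it was -0.02 (all genes -0.24), with 18 of 40 genes higher, or 45%, against 32.2% of all genes. The split of higher and lower genes was 33 and 7 as deposited, 37 and 3 with each library rescaled to the same sum, and 38 and 2 with median-ratio scaling. The enterocyte markers summed to 1300 FPKM in HttQ138 and 521 FPKM in w1118 (9 of 10 higher), visceral muscle markers to 22.0 and 4.69 FPKM (6 of 8 higher), Malpighian tubule markers to 7.24 and 0.631 FPKM (2 of 4 higher), and enteroendocrine markers to 365 and 504 FPKM (7 of 10 higher), each in that order. The part of these cells in the values was not tested.

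With HttQ138 in cells labelled CncCRNAi the picture was similar. Of the 40 genes, 28 were higher in the library labelled CncCRNAi+HttQ138 than in that labelled CncCRNAi, or 70%, against 35.8% of all genes. Their median log2 ratio was 0.09 (all genes -0.13). Abundant genes in general were nearer to the mitochondrial genes, and the 835 genes of at least 100 FPKM had a median of 0.05. At that level, 118 of 297 genes with a transcript under 1000 nt and 212 of 517 longer ones were lower. Of the cytosolic ribosomal protein genes, 31 of 86 were lower. With median-ratio scaling 34 were higher and 6 lower. CoVa was again the only gene to rise by 1.5-fold, against a background of 3.51%, and none fell by as much (background 8.14%). It was at 359 FPKM in the library labelled CncCRNAi+HttQ138 and 237 FPKM in that labelled CncCRNAi (ratio 1.51, 1.34 to 1.71). It was followed by Pdsw, at 177 FPKM in CncCRNAi+HttQ138 and 128 FPKM in CncCRNAi (ratio 1.38, 1.17 to 1.63), by RFeSP (1.27, 1.11 to 1.45), and by SdhB and levy, a complex IV subunit, both at 1.24. At the other end, Tim9b was at 7.92 FPKM in CncCRNAi+HttQ138 and 11.4 FPKM in CncCRNAi, Tom7 at 261 and 322 FPKM, Tim8 at 64.0 and 78.5 FPKM, Tom70 at 22.8 and 26.5 FPKM, and Acon at 146 and 162 FPKM, each in that order. Of these, only the Tom7 and Acon intervals lay below 1. No gene passed 3-fold, against backgrounds of 0.811% higher and 0.919% lower. The enterocyte markers summed to 699 FPKM in CncCRNAi+HttQ138 and 757 FPKM in CncCRNAi, and the enteroendocrine markers to 96.9 and 257 FPKM in that order. Their part in these values was not tested.

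Over both backgrounds, 23 mitochondrial genes were higher with HttQ138 than in the matching control, against 21.6% of all genes, 2 were lower in both, against 40.7% of all genes, and 15 were neither. In 14 genes both libraries with HttQ138 lay above all 3 control libraries, against a background of 8.4% of all genes. These were ATPsyn-beta, ATPsyn-Cf6, ATPsyn-b and sun of ATP synthase, CoVIb, CoVa, levy and CoVb of complex IV, Pdsw and ND23 of complex I, SdhC of complex II, RFeSP of complex III, the TCA cycle enzyme Mdh2 and the import protein Tim10. Apart from CoVa they did so by less than 1.5-fold in each comparison. Only Tom7 had both HttQ138 libraries below all 3 controls, against a background of 19.7%. This arrangement of libraries was looked for after the values were seen.

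The control libraries differed from each other by amounts of the same size as the HttQ138 differences. The highest of the 3 controls was a median of 1.19 times the lowest over the 40 genes, and the ratio was under 1.5 in 35 of them. The library labelled CncCRNAi was higher than w1118 in 34 genes, or 85%, against 61.3% of all genes, with a median log2 ratio of 0.17 (all genes 0.14), and 5 genes passed 1.5-fold, or 12.5%, against a background of 13.7%. These were Tim9b, Hsp60, Cyt-c-p, Tom70 and CoVIII. Hsp60 was at 277 FPKM in the library labelled CncCRNAi and 138 FPKM in w1118 (ratio 2.00, 1.85 to 2.17), and Tim9b at 11.4 FPKM and 1.71 FPKM in that order (ratio 6.68, 3.18 to 16.2), the one gene past 3-fold (background 3.44%). Tim9b shares exon sequence with Pstk on the same strand in the reference, so its value is uncertain. The attP2 library was higher than w1118 in 27 genes, or 67.5%, against 56.1% of all genes, with a median log2 ratio of 0.11 (all genes 0.07).

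Further subunits of the same machinery, which carry other symbols in these files, were taken from lists of the respiratory complexes. Of 89 listed genes, 44 were not already described and had a mean above 1 FPKM. All 44 were lower in Rpn3RNAi than in attP2, with a median log2 ratio of -0.68, and 31 fell by 1.5-fold, or 70.5%, against the background of 12.3%. Rpn3RNAi was the lowest of the 6 libraries in 41 of the 44. The c subunit of the ATP synthase rotor, ATPsynC (CG1746), had 826 FPKM in Rpn3RNAi and 1658 FPKM in attP2, the mitochondrial acyl carrier protein mtacp1 had 138 and 314 FPKM, and the complex IV subunit COX7A (CG9603) had 216 and 521 FPKM, each in that order. In HttQ138, 40 of these 44 genes were higher than in w1118, against 44.2% of all genes. Their median log2 ratio was 0.31, beside 0.02 for genes of at least 100 FPKM. The 2 that rose by 1.5-fold are a share below the background of 7.97%. Both were complex III subunits, UQCR-14 (CG3560) at 395 FPKM in HttQ138 and 245 FPKM in w1118 (ratio 1.61, 1.39 to 1.87) and UQCR-6.4 (CG14482) at 422 FPKM in HttQ138 and 267 FPKM in w1118 (ratio 1.58, 1.34 to 1.86). With HttQ138 in cells labelled CncCRNAi, 38 of 44 were higher, against 35.8% of all genes. Their median was 0.17, beside 0.05 for genes of at least 100 FPKM. The complex I subunits ND-B14.5A (CG3621) and ND-B18 (CG5548) rose, with ratios of 1.69 and 1.64, and 2 of 44 is near the background of 3.51%.

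Genes that feed and regulate the machinery did not all follow it. Of the 15 TCA cycle genes found, the 8 not already described were all lower in Rpn3RNAi. Of these, 6 fell by 1.5-fold (background 12.3%). The isocitrate dehydrogenase subunit Idh3a (l(1)G0156), 1 of the 6, was at 68.1 FPKM in Rpn3RNAi and 146 FPKM in attP2. Nc73EF, the E1 subunit of the oxoglutarate dehydrogenase complex, was at 96.3 FPKM in Rpn3RNAi and 98.4 FPKM in attP2. Of 6 genes of pyruvate entry, 5 were lower in Rpn3RNAi and 4 fell by 1.5-fold. The latter included the pyruvate dehydrogenase subunit Pdha (l(1)G0334) at 43.5 FPKM in Rpn3RNAi and 95.5 FPKM in attP2. The mitochondrial pyruvate carrier Mpc1 (CG14290) fell in each main comparison, with 30.8 FPKM in HttQ138 and 53.1 FPKM in w1118, 21.4 FPKM in Rpn3RNAi and 46.4 FPKM in attP2, and 30.4 FPKM in CncCRNAi+HttQ138 and 54.4 FPKM in CncCRNAi. Most subunits of the complexes were higher in both libraries with HttQ138 than in their controls.

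Among 4 genes known to regulate mitochondrial biogenesis, the PGC-1 homologue Spargel was at 27.5 FPKM in Rpn3RNAi and 32.8 FPKM in attP2, the NRF-1 homologue ewg at 26.2 and 25.9 FPKM, and the GABP-alpha homologue Ets97D at 8.23 and 8.19 FPKM, each in that order. The median log2 ratio of the 4, which include ERR, was -0.04, and none passed 1.5-fold (backgrounds 12.3% lower and 10.5% higher). With HttQ138 against w1118 one of the 4 passed it (background 10.6%), ewg, at 19.8 FPKM in HttQ138 and 38.2 FPKM in w1118 (ratio 0.519, 0.438 to 0.612). The 6 genes of mitochondrial DNA upkeep had a median log2 ratio of -0.08 in Rpn3RNAi over attP2. Only 1 of the 6 fell by 1.5-fold, beside a background of 12.3% of all genes. It was mtSSB, the single-stranded DNA binding protein, at 54.5 FPKM in Rpn3RNAi and 94.8 FPKM in attP2. TFAM, which packages mitochondrial DNA, was at 54.3 FPKM in Rpn3RNAi and 47.8 FPKM in attP2. In HttQ138 over w1118 all 6 were lower (55.0% of all genes), with a median log2 ratio of -0.36, and 0 fell by 1.5-fold. In CncCRNAi+HttQ138 over CncCRNAi, 5 of the 6 were lower (63.2% of all genes), with a median of -0.36. Of these, 1 fell by 1.5-fold (background 8.14%).

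Most paralogs of these genes were at low levels. Of 17 paralogs, many of them known from the male germ line, 15 had a mean of 1 FPKM or less and 4 were listed at 0 in every library. Cyt-c-d had at most 1.49 FPKM, beside 87.2 FPKM or more for Cyt-c-p, and the porin paralog Porin2 had 4.04 to 11.4 FPKM beside 438 to 914 FPKM for porin. The genes with a mean of 1 FPKM or less were Tim17b1, Tim17b2, Tim17a1, Tim17a2, Tim17b, Tim13 and Cyt-c-d. Tim17b, the broadly expressed channel component of the TIM23 complex, was listed at 0 in all 6 libraries, and Tim13 was listed at 0 in 5 of 6. Both are genes that cells in general need, so the listing at 0 is given as it stands and not as a level.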

How the data were processed

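RNA of FACS-purified escargot-positive midgut cells was sequenced by the authors as 150 bp paired-end MiSeq reads, which they mapped with the Tuxedo suite (tool versions not given in the sources used here). The authors deposited FPKM per gene, that is, values normalized by transcript length and mapped fragments, for 6 libraries, 1 per condition. FPKM values were used as deposited. They sum to 639046 to 797524 per library. The strand setting of the counting is not stated. In the reference annotation, exons of 23 of the 40 genes overlap no other gene, 15 overlap one on the other strand and 4 on the same strand (CoVIb, Tim10, Tim9b and sesB, with Tim10 and Tim9b in both groups).

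Log2 ratios were taken of FPKM + 1, so those of low genes are understated. The comparisons were HttQ138 with w1118, Rpn3RNAi with attP2, CncCRNAi+HttQ138 with CncCRNAi, and, between controls, CncCRNAi with w1118 and attP2 with w1118. A gene was called at 3-fold (the threshold of the study) or 1.5-fold with at least 10 FPKM in the higher library. All genes with a mean above 1 FPKM served as background. With 1 library per condition, no test was made.

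Depth was recovered from 5540 genes with a single transcript: 78.5% to 82.5% of 730 to 802 low values per library were whole fragments within 0.05. Intervals were tested on simulated data. Other scalings, pseudocounts, filters and control libraries were tried.

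Of the listed identifiers, 15147 (97.1%) were found in a release 6 reference. The authors used release 5, so no coordinates are given. The gene lists had 6 unmatched names. Named are, per main comparison, the 5 mitochondrial genes that were highest and the 5 that were lowest by log2 ratio, genes past 3-fold, the most and least abundant gene of each role, paralogs, and list genes with large changes; CG4538, CG5045, Trap1, Lon, Spargel, ERR, Ets97D and the remaining genes named were added to complete a group. The genes and lists were chosen with earlier results of these data known. Python 3.11.15, numpy 2.4.6, pandas 2.3.3 and scipy 1.17.1 were used.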

Additional observations from a re-analysis of the deposited data

Results flagged for a closer look

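Hsp60 stood out because its difference with HttQ138 had opposite signs in the 2 pairs of libraries. The ratio was 1.26 (1.16 to 1.37) for HttQ138 over w1118, with 174 FPKM in HttQ138 and 138 FPKM in w1118. It was 0.926 (0.871 to 0.985) for CncCRNAi+HttQ138 over CncCRNAi, with 256 FPKM and 277 FPKM in that order. Each of these is 1 library against 1 library, and the difference between the ratios was not tested.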

How the results depend on the processing

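Of 96 alternatives tried over all results, 75 left the value close to the one reported, 20 moved it and 1 reversed it. A count was taken as close if it was unchanged, also at 0, or within 1.5-fold of the reported count. This tolerance is wide, and 34 falls becoming 24 is within it. A median was taken as close if it lay within a binomial interval of the reported median over the genes. For HttQ138 over w1118, the median log2 ratio of 0.12 was 0.052 with attP2 as control (all genes -0.15). It reversed to -0.021 with CncCRNAi (all genes -0.24). The 1 rise of 1.5-fold became 2 with a fixed sum per library, 3 with median-ratio scaling and 2 with no minimum level. The share of all genes that rose was not counted under these settings. The count of rises became 0 with either other control (backgrounds 6.28% with attP2 and 5.42% with CncCRNAi). With CncCRNAi as control 3 genes fell by 1.5-fold, or 7.5%, which is below the background of 18% with that control. Over w1118, 0 had done so. With no minimum level 1 gene, Tim9b, passed 3-fold.

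For Rpn3RNAi over attP2, the median log2 ratio of -0.78 was -0.65 with a fixed sum and -0.61 with median-ratio scaling, which moved the median of all genes to 0.11, where it was -0.03. The 34 falls of 1.5-fold became 24 with a fixed sum and 21 with median-ratio scaling. The share of all genes that fell by 1.5-fold was not counted under these scalings. With w1118 as control they became 27, or 67.5%, against a background of 13.2%. The number of higher genes, 0, became 1 under both scalings and 3 when all 47 genes were counted, all of the added ones at low levels.

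For CncCRNAi+HttQ138 over CncCRNAi, the median of 0.09 was 0.18 with median-ratio scaling, 0.30 with w1118 and 0.22 with attP2 as control. Over w1118, 5 genes rose by 1.5-fold, or 12.5%, near the background of 11.6%. An alternative chosen after seeing the data kept the 23 genes whose exons overlap no other gene. Of these, 20 were higher in HttQ138 and 17 in CncCRNAi+HttQ138, and all 23 were lower in Rpn3RNAi with a median of -0.73.

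No paired analysis was possible because each condition has 1 library. Leaving out a library was not possible for the same reason. Depth limits the low genes, such as Tim9b, whose intervals span several fold.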
